A study of Mus musculus with 5 samples.

Results

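Macrophages grown from the bone marrow of wild type mice were described at rest, that is, with no stimulus named beyond the growth factor that made them. The wild type libraries are 3 of the 5 samples of the series, and every value below comes from them alone. The mice had a C57BL/6 background and were 7-8 weeks old, and the marrow cells were grown for 7 days in 25 ng/ml M-CSF before RNA was extracted. The labels name no other allele or agent for this group. The other samples, from mice labelled NICcA, were not analysed here, and no genotypes were compared. One row was kept for each of 20583 gene symbols, the row with the highest mean read count over these libraries, so 20583 of 27457 transcript rows were used. Levels are the authors' RPKM, a read count divided by the length of the transcript and the size of the library. Where 3 values follow a gene, they are those of replicates 1, 2 and 3, in that order. The labels do not say that the 3 libraries came from separate animals or cultures, so their spread may be technical.

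M-CSF binds the receptor Csf1r and drives marrow progenitors to become macrophages, which divide less as they mature. Macrophages take up particles and dead cells through Fc, complement, lectin and scavenger receptors and break them down in lysosomes, which a vacuolar proton pump keeps acidic. They sense microbes through Toll-like receptors, recruit other leukocytes with chemokines, and present peptides on MHC molecules. PU.1 (Sfpi1), the C/EBP factors and the interferon regulatory factors are the best known regulators of their genes.

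The total count of a library was 57442309, 76562905 and 69140350 over all rows of the table, and 40088984, 53725121 and 48078221 over the rows kept. Replicate 3 stood apart in 2 respects. It had 2363 genes at a count of 0, against 5250 and 5241, and 2415 genes were counted in it alone, at a median count of 2 and a highest count of 56, against 171 and 177 genes counted only in replicates 1 and 2. Across the 9897 genes at a mean of at least 1 RPKM, Pearson's r of log2(RPKM + 1) was 0.986 between replicates 1 and 2, 0.972 between 1 and 3 and 0.978 between 2 and 3. These are correlations across genes within libraries, and genes are not independent replicates. For all genes together and for some of the lists, the count past 2-fold between replicates 1 and 2 alone is also given. The share to set beside it in the lists is 1.75%. It covers the 9896 genes at a mean of at least 1 RPKM that were counted in both. It is not given for the abundance classes.

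The macrophage markers stood high in each library. Lyz2, which encodes the lysozyme that cuts bacterial cell walls, was at 8836, 10513 and 12884 RPKM (mean ± SD 10744 ± 2034, n = 3) and was the most abundant gene in every library. Mpeg1, a pore-forming protein of the phagosome, was at 519.7, 655 and 758 RPKM (644 ± 119). The lysosomal glycoprotein gene Cd68 was at 225, 273 and 351 RPKM (283 ± 63.6), and Csf1r, the M-CSF receptor, was at 176, 177 and 229.8 RPKM (194 ± 30.7). In RNA of whole cultures, fewer cells of a type and less RNA per cell cannot be told apart. The 4 genes ranked 1, 43, 131 and 195 of 20583. All 4 were highest in replicate 3, as were 27.3% of all genes at 1 RPKM or more, and lowest in replicate 1, as were 23.1%. Of 17 further macrophage genes, 15 were at 1 RPKM or more, where 48.1% of all genes were. Among the 15 were Emr1, which encodes the F4/80 antigen (91, 62.9 and 85), and Itgam, the alpha chain of complement receptor 3 (83.8, 34.6 and 60.8). Cx3cr1, the fractalkine receptor of monocytes and some tissue macrophages, was low (0.285, 0.319 and 0.764), as was Ly6c1 (0.0453, 0.0683 and 0.019), while Ly6c2 of inflammatory monocytes was at 32.7, 27.2 and 16.1 RPKM.

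Among markers of other cells, those of T, NK, B and plasma cells were mostly at trace levels. For each list here and below, the share to set beside a count at 1 RPKM or more is the 48.1% of all genes. Of 16 T and NK cell markers, 1 reached 1 RPKM, the signalling chain Cd247 (0.994, 0.746 and 1.32), while the T cell receptor subunit Cd3e was at 0.0196, 0 and 0 and the killer protease Gzmb at 0, 0 and 0.0167. Of 14 B and plasma cell markers, 1 did so, the inhibitory lectin Cd22 (4.87, 8.73 and 10.5), while the B cell factor Pax5 had a count of 0 throughout. A count of 0 allows up to 3 counts, which is 0.0748, 0.0558 and 0.0624 CPM (counts scaled to library size), for counting error only. The summed levels of these lists were 0.000603% to 0.000913% and 0.00191% to 0.00423% of all RPKM. Neutrophil markers were split. The collagenase gene Mmp8 (246, 192 and 287), the calprotectin subunits S100a8 (51.2, 29.2 and 60.6) and S100a9 (37, 24.5 and 47), and Lcn2 were well above 1 RPKM, whereas the granule enzymes Mpo (0.00552, 0.0125 and 0.051) and Elane (0.168, 0.334 and 0.192) stayed under it. In all, 8 of 17 members reached 1 RPKM, near the 48.1% of all genes. The list held 0.131%, 0.0989% and 0.159% of RPKM. Of the 8 members, 7 were highest in replicate 3, where 27.3% of all genes at 1 RPKM or more were highest. Lowest in replicate 2 were 6, where 33.5% of all such genes were lowest. Between the highest and the lowest library 5 of the 8 differed by more than 2-fold, where 6.35% of all genes at 1 RPKM or more did so. Between replicates 1 and 2 alone 2 of the 8 did, against 1.75% of all genes.

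Dendritic cell markers reached 1 RPKM in 11 of 15 cases, and their sum was 0.0483% to 0.0787% of RPKM. Bst2 (92.1, 115 and 72), Ccl22, Ccr7 and Batf3 (12.6, 11.4 and 14) led the list. Bst2 and several others are also made by macrophages. Flt3 (0.0154, 0.0812 and 0.0904), Xcr1 (0.0632, 0.0595 and 0.0689) and Siglech (0.0587, 0.0265 and 0.0197), named for their low values, were near 0. Zbtb46, a factor of conventional dendritic cells, was at 1.68, 1.45 and 0.806. Of 17 mast cell, basophil and eosinophil markers 3 reached 1 RPKM, the mast cell protease Cpa3 (5.74, 2.89 and 1.23), the granule protein Prg2 (3.52, 2.12 and 0.901) and Kit (1.53, 1.71 and 0.813), all of them lowest in replicate 3, as were 43.4% of all genes at 1 RPKM or more. Erythroid and megakaryocyte markers did so in 4 of 20 cases, led by platelet factor 4, Pf4 (29.7, 19.6 and 41.3), a chemokine also made by macrophages, while the globin Hba-a1 was at 0, 0 and 0.0211. Of 28 stromal, endothelial and fat cell markers 4 did so, led by Vwf (13.3, 15.9 and 14.4), the platelet adhesion protein of endothelium, and the endothelial receptor Kdr (3.19, 5.57 and 2.87), while the fat cell hormone Adipoq was at 0.0228, 0.0172 and 0.0383. The fibroblast collagens Col3a1 (1.06, 0.00381 and 0.00212) and Col1a2 (0.851, 0 and 0.0206) showed a trace in replicate 1 and were close to 0 in the others. Whether other cells take part in any difference between the libraries was not tested.

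Osteoclast markers were the fullest of these lists, with 12 of 15 members at 1 RPKM or more. The osteoclast is a bone-resorbing cell of the same lineage and shares much of its lysosomal equipment with macrophages. Atp6v0d2 (165, 172 and 204), the collagen-cleaving cathepsin Ctsk (87.7, 136 and 299), Tcirg1 (108, 138 and 137) and the acid phosphatase Acp5 (66.7, 82.1 and 73) led it, whereas Calcr, the calcitonin receptor, was at 0, 0 and 0.0136 and Oscar at 0.0232, 0 and 0.013. Stem and progenitor markers reached 1 RPKM in 6 of 16 cases, led by Ly6a (26.4, 11.2 and 7.24) and Procr (9.07, 14.4 and 8.75), and Myb (0.242, 0.166 and 0.103) and Hlf (0.00497, 0 and 0.0229) did not.

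The transcriptome was steep. By mean RPKM, 25 genes were at 1000 or more and held 25.3% of the summed RPKM (24.9% with Ear3 and Ear12, which have identical counts, taken once), and 362 genes between 100 and 1000 held 31.9%. A further 3563 genes between 10 and 100 held 33.0%, and 5947 genes between 1 and 10 held 9.48%. The remaining genes were 2319 between 0.1 and 1, 6440 under 0.1, and 1927 listed at 0 in all 3 libraries. In all, 9897 genes (48.1%) were at a mean of at least 1 RPKM, and 9494 were so in every library. The number of top genes that together held 50% of the RPKM was 251, 219 and 212 in replicates 1, 2 and 3. The 10 genes with the highest counts held 11.99%, 12.7% and 13.3% of the counts. The count of genes at 0 in 1 library depended on the library, since replicate 3 placed 6077 genes in the class under 0.1 RPKM against 3048 and 3254.

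**Figure D1:**
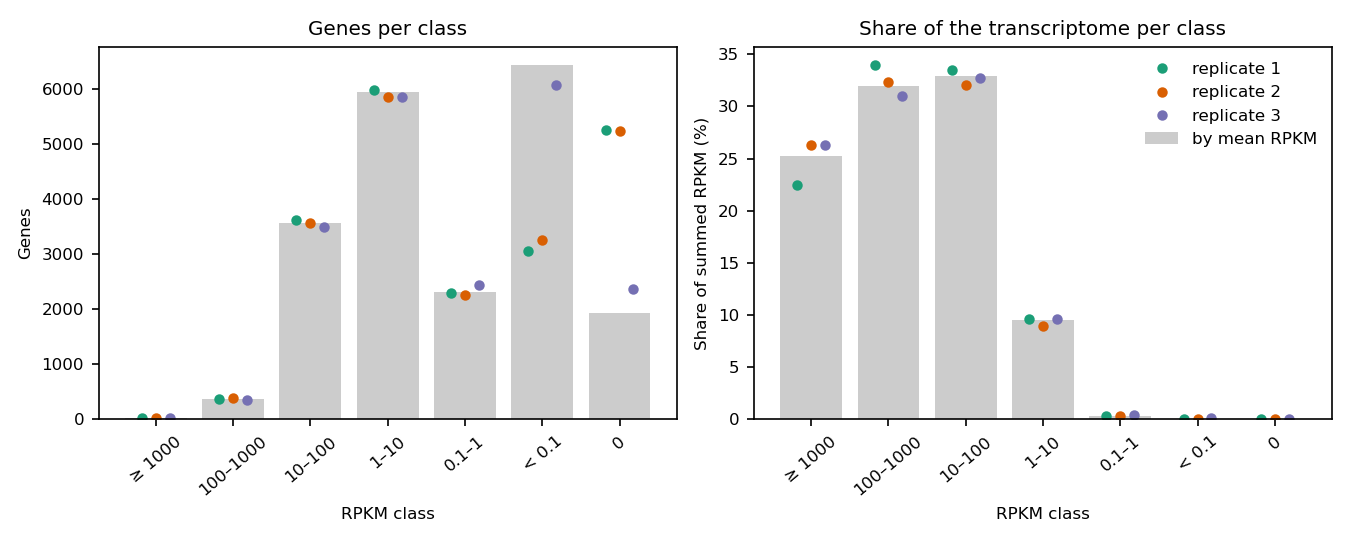
Left, number of genes in each RPKM class, and right, the share of the summed RPKM (percent) that each class held. Bars use the mean of the 3 wild type libraries and points show each library: the 25 genes at 1000 RPKM or more held 25.3% of the RPKM, and replicate 3 had fewer genes at 0 and more under 0.1 RPKM than the others.

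The 30 most abundant genes held genes of secretion, iron storage, lysosomes, the cytoskeleton and antigen presentation. After Lyz2 came Chi3l3, the chitinase-like protein Ym1, at 8602, 8326 and 6198 RPKM. Chi3l3 was lowest in replicate 3, where Lyz2 was highest. The ferritin light and heavy chains, which store iron, followed with Ftl1 at 6654, 7050 and 7327 and Fth1 at 3351, 4343 and 4483. Next were the lysosomal proteases Ctss (3169, 3881 and 4926) and Ctsd (3311, 4076 and 3986) and Psap (3373, 3473 and 3762), the precursor of the saposins that help break down sphingolipids. The ranges of Fth1, Ctss, Ctsd, Tmsb4x and Psap overlapped over the libraries, so their order was not resolved. Cd74, the invariant chain of MHC class II, was at 2737, 3594 and 3722 RPKM.

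The cytoskeletal genes among the 30 were Tmsb4x, which binds actin monomers (4068, 3713 and 3447), Actb (2574, 2565 and 2473) and the intermediate filament gene Vim (1033, 1154 and 964). The elongation factor Eef1a1 (2595, 2438 and 2188) and the ribosomal protein Rplp1 (926, 1037 and 656) stood for the translation machinery. Secreted proteins were the chemokine Ccl6 (2560, 2670 and 1832), the lectin Lgals3 (1857, 2235 and 1648), the protease inhibitors Wfdc17 (1366, 1681 and 1277) and Cst3 (1258, 1240 and 882), the elastase Mmp12 (909, 976 and 1153) and the lipid carrier Apoe. The antigen presentation genes were B2m (1437, 1492 and 1483), H2-L (1070, 1490 and 1331), H2-D1 (994, 1362 and 1237), H2-Aa (1021, 1401 and 1443) and H2-Ab1 (726, 1097 and 1039). H2-L and H2-D1 are close relatives whose reads can be split between them, and C57BL/6 mice are known to lack an H2-L gene. The set closed with the ribonucleases Ear2 (1146, 1388 and 1136), Ear3 and Ear12, the calcium-binding S100a4 (1199, 1117 and 948), the membrane glycoprotein Gpnmb (781, 749 and 1142) and the peroxidase Gpx1 (829, 819.8 and 894).

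Apoe, which carries cholesterol out of macrophages, was the one gene of the 30 whose libraries differed by more than 2-fold. It was at 404, 409 and 2144 RPKM, which put it at rank 80, 85 and 12, so replicates 1 and 2 lay close together and replicate 3 was 5.31-fold above the lowest. Actb and B2m, in contrast, each spanned 1.04-fold. Ear3 and Ear12 had identical counts, so their reads could not be told apart and they were 1 measurement at 954, 1155 and 974 RPKM. The libraries shared 9 of their 10 most abundant genes, 25 of their top 30 and 82 of their top 100. Among the 100 most abundant genes by mean, 34 encoded cytosolic ribosomal proteins, 8 MHC proteins, 8 lysosomal proteins, 6 cytoskeletal proteins and 6 lysozymes, chitinase-like proteins or ribonucleases. Those last 6 genes are 5 measurements, and with Ear3 and Ear12 taken once they held 7.12%, 7.51% and 7.92% of the RPKM, and the 34 ribosomal genes 6.33%, 6.44% and 4.999%. These groups were counted after the values had been seen.

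**Figure D2:**
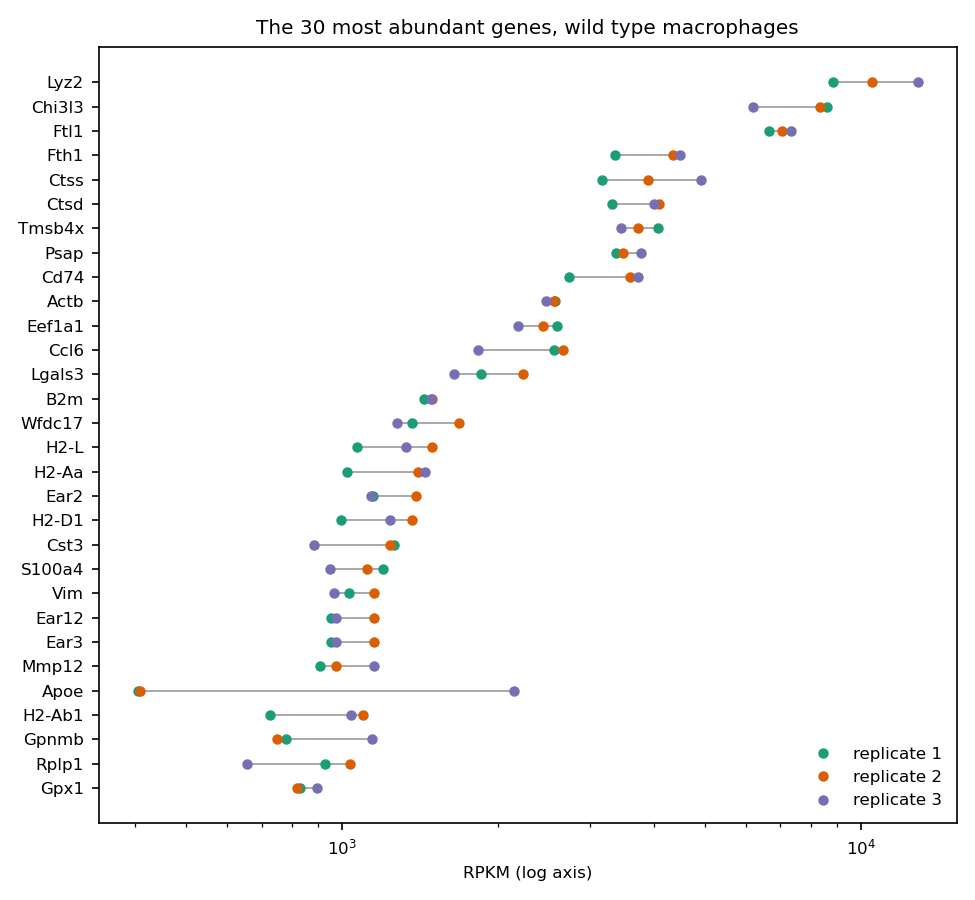
RPKM (log axis) of the 30 genes with the highest mean in wild type macrophages, 1 point per library, with a line from the lowest to the highest library. The points of a gene lie close together except for Apoe, which was at 404, 409 and 2144 RPKM.

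The surface receptors came next. The growth factor and cytokine receptors were broadly present, with 32 of 36 members at 1 RPKM or more, where 48.1% of all genes were, and a median of 14.1 RPKM, against 0.731 over all genes. After Csf1r came Tnfrsf1b, the second TNF receptor (114, 121 and 151), Csf2rb, the shared beta chain of the GM-CSF, IL-3 and IL-5 receptors (129.8, 117 and 108), and Csf2ra, the GM-CSF receptor alpha chain (75.4, 121 and 93.7). The ranges of these last 3 overlapped. Csf2rb has a near-identical neighbour, Csf2rb2 (15.3, 12.1 and 14.8), with which it can share reads. The interferon gamma receptor chains Ifngr1 (51.9, 42.7 and 53.1) and Ifngr2 (30.8, 36 and 38.7) and the interleukin-10 receptor chain Il10ra (38.2, 35.6 and 35.8) were also steady. Receptors of other cells were low: Epor, the erythropoietin receptor, was at 0.185, 0.145 and 0.206 and Flt3 at 0.0154, 0.0812 and 0.0904.

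Of 17 Toll-like receptor genes and their partners, 13 were at 1 RPKM or more. Unc93b1, which carries the nucleic acid sensing receptors to endosomes, was at 101, 117 and 141 RPKM. Tlr8 (94, 78 and 120.4) and Tlr2, which binds bacterial lipoproteins (82.7, 95.3 and 86.4), came before Cd14, the lipopolysaccharide co-receptor (57.5, 97.8 and 83.2), by their means, with overlapping ranges. The lipopolysaccharide receptor Tlr4 (55.9, 41.4 and 44.6), the single-stranded RNA sensor Tlr7 (46.8, 42.1 and 52) and the ribosomal RNA sensor Tlr13 (39.1, 34 and 56) lay in 1 band with overlapping ranges. Tlr9, a sensor of CpG DNA, was lower (1.69, 1.14 and 1.06), as was Tlr3 (0.923, 0.666 and 1.12). The flagellin receptor Tlr5 (0.0923, 0.0166 and 0.059) and Tlr11 (0.373, 0.331 and 0.177) were under 1 RPKM in every library. Of the 13 members, 8 were highest in replicate 3, against 27.3% of all genes, and 3 differed by more than 2-fold, against 6.35%. The 3 were Cd180 (3.96, 2.18 and 4.84), Ly96 (2.17, 1.99 and 4.66) and Tlr1 (2.3, 1.74 and 4.07), chosen for naming after their values were seen. Between replicates 1 and 2 alone, 0 of the 13 were past 2-fold, which for so few members is near the 1.75% of all genes.

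Fc and complement receptors reached 1 RPKM in 14 of 20 cases. Itgb2, the beta chain of the leukocyte integrins (389.97, 458 and 461), the low-affinity IgG receptor Fcgr3 (245, 259 and 243), its signalling chain Fcer1g (144, 175 and 185) and Itgax, the CD11c antigen (133, 156 and 164), led the list. The inhibitory Fcgr2b was at 136, 144 and 144 RPKM, with a range that overlapped that of Itgax. Itgam had its highest value in replicate 1 and its lowest in replicate 2. Cr2 of B cells (0.0567, 0.0205 and 0.0551) and Vsig4 of liver macrophages (0.0589, 0 and 0.0412) were near 0.

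Scavenger and phagocytic receptors were the longest of these lists, with 33 of 43 members at 1 RPKM or more and a median of 11.9 RPKM. Tyrobp, the adaptor through which many activating receptors signal, was at 591, 704 and 686 RPKM. The fungal lectin receptors Clec4n, or dectin-2, (457, 449.6 and 399) and Clec7a, or dectin-1, (313, 417 and 451) followed, with Cd68 after them. Trem2, a lipid receptor that signals through Tyrobp, was at 138, 127 and 149.99 RPKM, the mannose receptor Mrc1 at 143, 115 and 107 and the receptor Axl for dying cells at 70.1, 85.1 and 80.9. The hemoglobin scavenger receptor Cd163 (0.467, 0.434 and 0.383) and Timd4, a phosphatidylserine receptor of resident macrophages (0, 0 and 0.00542), were low. Mertk, a sister receptor of Axl, was lower than Axl in every library (19.4, 22.8 and 30.5).

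Of 32 chemokine and chemoattractant receptors, 17 were at 1 RPKM or more, a share near the 48.1% of all genes. Ccr2 (151, 76.8 and 114) and Ccr1 (89.96, 58.6 and 72.5), which bind inflammatory CC chemokines, were among the most abundant members, as was the ATP-gated channel P2rx4 (55.6, 72.4 and 80.4). Ccr2 was highest in replicate 1 and lowest in replicate 2. Ccr7, which guides cells to lymph nodes, was highest in replicate 2 (13.7, 30.5 and 9.32). Ccr8 was listed at 0 and Ccr3 was at 0.0086, 0 and 0.0397.

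Integrins and adhesion molecules reached 1 RPKM in 22 of 36 cases. The tetraspanins Cd9 (406, 525 and 433) and Cd63 (335, 372 and 393) led the list, followed by the basigin relative Emb (141, 101 and 139) and by Selplg, the ligand of P-selectin (99.4, 94.2 and 80.7). The integrin Itgb6 of epithelia was at 0, 0.00221 and 0.00246. Inhibitory receptors and co-stimulatory ligands did so in 18 of 22 cases. Lilrb4 (392, 397 and 421) and its relative Gp49a (308, 277 and 290.3), which can share reads, came first, then Sirpa, the receptor for the CD47 signal on healthy cells (213, 257 and 263), and 4632428N05Rik, which encodes the checkpoint protein VISTA (76.7, 71 and 92.9). Lilrb4 and Sirpa each spanned less than 1.5-fold. Cd40, which receives T cell help, was at 0.727, 1.52 and 0.533 and Siglech at 0.0587, 0.0265 and 0.0197.

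**Figure D3:**
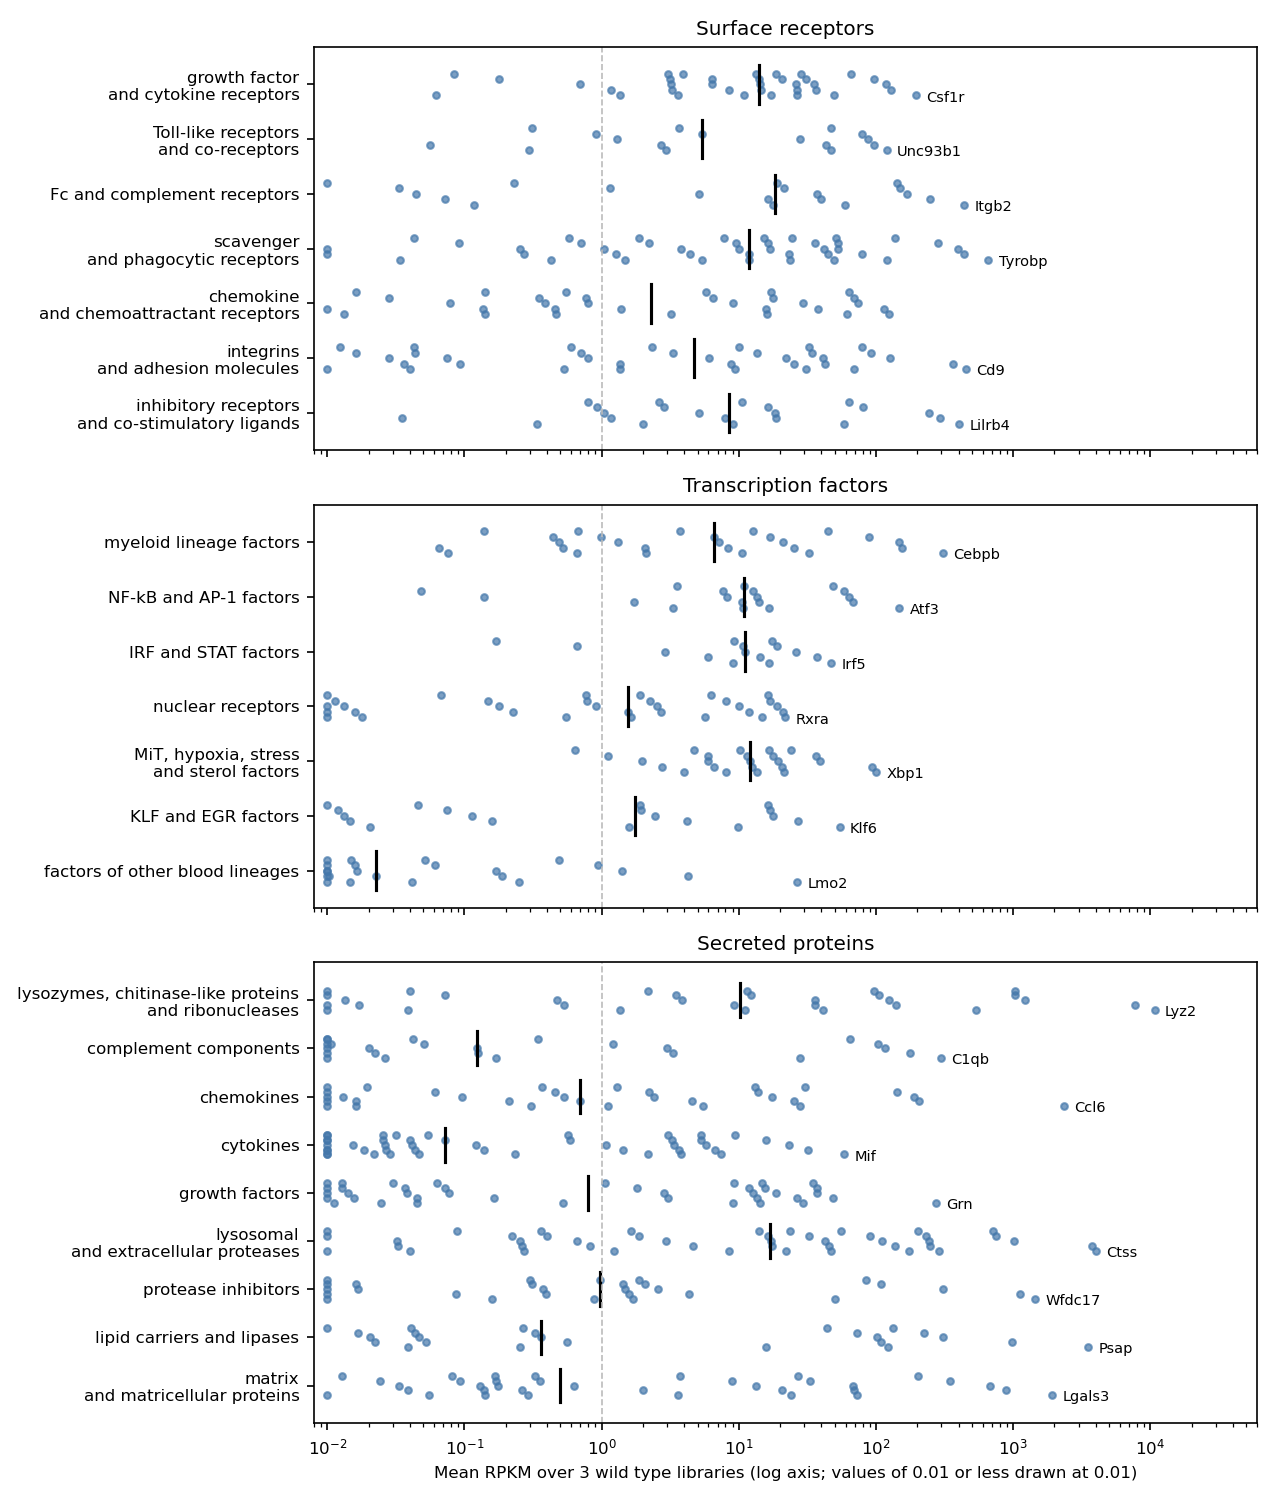
Mean RPKM over the 3 wild type libraries (log axis) of every gene of 23 lists of surface receptors, transcription factors and secreted proteins, 1 point per gene. The black line is the median of the list, the dashed line marks 1 RPKM and the most abundant gene is named, except for chemokine and chemoattractant receptors; levels at or under 0.01 RPKM are drawn at 0.01. The adaptor Tyrobp is the highest gene of the receptor lists, Cebpb of the transcription factors and Lyz2 of the secreted proteins.

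The most abundant transcription factor gene, Cebpb, lay below Tyrobp, the most abundant gene of the receptor lists, in every library. It lay above Csf1r, which led the growth factor and cytokine receptors, in every library. The myeloid lineage factors had 18 of 27 members at 1 RPKM or more and a median of 6.63 RPKM. Cebpb, a C/EBP factor of differentiation and inflammation, was at 221, 417 and 281 RPKM and Cebpa at 115, 186 and 164. Sfpi1 was at 136, 161 and 145 RPKM, with a range that overlapped that of Cebpa. Id2, which inhibits helix-loop-helix factors, was at 83.2, 108 and 77.4 and Irf8, a factor of monocytes and dendritic cells, at 36.6, 46.5 and 51.5. All but Id2 were lowest in replicate 1, and Cebpb, Cebpa, Sfpi1 and Id2 were highest in replicate 2. Gfi1 of granulocytes was at 0.0786, 0.0704 and 0.0783 and Spib at 0.222, 0.0989 and 0.0932.

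NF-kB and AP-1 factors reached 1 RPKM in 17 of 19 cases, with a median of 10.8 RPKM. The stress factors Atf3 (119.8, 128 and 196) and Atf4 (63.5, 68.7 and 60.1) and the AP-1 subunits Jund (61.6, 83.8 and 59.5) and Junb (49.3, 70.8 and 56.4) led the list. Fosl1 (0.165, 0.131 and 0.118) and Fosb (0.0484, 0.0253 and 0.0719) were under 1 RPKM. Of the 17, 10 were highest in replicate 2, where 32.4% of all genes at 1 RPKM or more were highest, and 10 were lowest in replicate 1, where 23.1% were lowest. The list's median deviation from the mean of the libraries was -0.16, 0.12 and -0.01 on the log2 scale, where all genes had 0.03, -0.01 and -0.04.

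Of 15 interferon regulatory factors and STAT factors, 13 were at 1 RPKM or more. Among these, 0 were past 2-fold between libraries, which for so few members is near the 6.35% of all genes. Their median coefficient of variation was 9.86%, close to the 10.2% of all genes. Irf5, which drives inflammatory genes (49.3, 49.8 and 41.6), Stat6, the factor of interleukin-4 signalling (36.5, 37 and 37.9), Stat3 (26.9, 27.1 and 24.7) and Irf1 (19.6, 18.8 and 18.5) came first. The ranges of these 4 did not overlap. Stat4 was low, at 0.623, 0.928 and 0.439. Of the 13, 11 were lowest in replicate 3, against 43.4% of all genes.

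Nuclear receptors reached 1 RPKM in 17 of 33 cases, near the 48.1% of all genes. Of the 17, 0 were past 2-fold, which for so few members is near the 6.35% of all genes. Their levels were low in RPKM. Rxra, the partner of many of them, was at 20.2, 22.8 and 22 RPKM, the oxysterol receptor Nr1h2 at 19.3, 24.3 and 19.8, Nr2f6 at 16.4, 24.1 and 16.9 and the fatty acid receptor Pparg at 15.5, 18.7 and 16.1, with ranges that overlapped from each to the next. The liver receptor Hnf4a was at 0, 0.00973 and 0.0162 and Nr4a1 at 0.148, 0.111 and 0.186. Factors of the MiT family, hypoxia, stress and sterol responses reached 1 RPKM in 24 of 25 cases. Again 0 were past 2-fold, a number that does not set so short a list apart from the 6.35% of all genes. Xbp1, of the unfolded protein response (120.1, 102 and 77.5), and Nfe2l2, of the oxidative stress response (80.3, 94.1 and 108), were above Mxd4 (35.4, 42.1 and 39.4) and Tfec (40.1, 35.2 and 34.7). Tfeb, the regulator of lysosomal genes, was at 17.7, 25.1 and 21.2 RPKM and its relatives Mitf and Tfe3 at 17.5, 18.1 and 26 and 11.8, 12.8 and 12.8.

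KLF and EGR factors reached 1 RPKM in 11 of 20 cases, where 48.1% of all genes did. Of the 11, 0 were past 2-fold, which for so few members is near the 6.35% of all genes. The list was led by Klf6 (52.9, 49.4 and 60.5), Egr2 (20.3, 24.6 and 35.5), Klf9 (19.1, 17.8 and 16.6) and Klf13 (16.3, 17.4 and 16.7). The immediate early gene Egr1 was at 0.119, 0.11 and 0.25 and Klf1 of red cells at 0.128, 0.076 and 0.138. Factors of other blood lineages had a median of 0.0225 RPKM, and 3 of 23 reached 1 RPKM. These were Lmo2 (26.9, 23.7 and 29.7), also known from myeloid cells, Foxp3 (4.49, 4.58 and 3.74) and Prdm1 (0.982, 1.19 and 2.04). Foxp3, the factor of regulatory T cells, overlaps Ccdc22 in the RefSeq annotation, and Ccdc22 was at 15.5, 16.9 and 12.5 RPKM, so reads of the overlap could have been counted for either gene. Gata1 (0.0222, 0.0223 and 0.0806) was near 0.

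The highest levels were those of secreted proteins. Of 32 lysozymes, chitinase-like proteins, ribonucleases and related antimicrobial proteins, 21 were at 1 RPKM or more and 5 at 1000 or more, Ear3 and Ear12 among them. With those 2 taken once, the list as a whole held 7.36%, 7.77% and 8.09% of the RPKM. Lyz1, the lysozyme of Paneth cells and a close copy of Lyz2, was at 469.6, 527 and 609 RPKM and can receive its reads. Retnla, a marker of alternative activation, was at 1.39, 1.06 and 1.62 RPKM and Chi3l1 at 0.541, 0.402 and 0.482. Ear10 was at 0.329, 0.27 and 124 RPKM, from counts of 11, 12 and 4935, while its relatives Ear11 (203, 149 and 68.3), Ear6 (118, 195 and 58.3) and Ear7 (101, 162 and 55.1) were lowest in replicate 3. With Ear3 and Ear12 taken once, the 11 Ear genes summed to 2532, 3062 and 2422 RPKM. These paralogs can share reads, so which of them a read is credited to is uncertain.

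Complement genes were at 1 RPKM or more in 9 of 25 cases. The chains of C1q, which starts the classical pathway, led the list, with C1qb at 242, 233 and 419.7, C1qc at 147, 126 and 255 and C1qa at 91.4, 88 and 172. All 3 were highest in replicate 3. Properdin, Cfp, was at 135, 90.2 and 85.4 RPKM and C3 at 63.3, 61.4 and 70.2, whereas the terminal component C9 was listed at 0. Cfb, a protease of the alternative pathway, was highest in replicate 2 (17, 44.1 and 22.3).

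Chemokine genes were the least even of the families of secreted proteins, by the share past 2-fold. Ccl6 held most of the list's RPKM, and Ccl17 (275, 314 and 26.5), Ccl9 (210.1, 164 and 198) and Cxcl16 (95.1, 174 and 158) followed. Of 33 members 16 were at 1 RPKM or more, near the 48.1% of all genes. Of these 16, 12 differed by more than 2-fold between the highest and the lowest library, where 6.35% of all genes at 1 RPKM or more did so. Between replicates 1 and 2 alone, 7 of the 16 did, against 1.75% of all genes. Cxcl3, Cxcl2 and Cxcl1 passed the cut of 1 RPKM only through replicate 2, so their place in these counts is no result. Cxcl9 (0.00968, 0.00365 and 0.00406) and Cxcl10 (0.422, 0.472 and 0.215), chemokines of the interferon response, were under 1 RPKM. Cxcl12 of stromal cells was at 0.0298, 0 and 0.0187.

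Cytokine genes were low, with a median of 0.0725 RPKM over 47 members, 18 of them at 1 RPKM or more. Mif, which inhibits macrophage migration, was at 60.5, 69.7 and 44.7 RPKM, Tnfsf13 at 28.5, 36.7 and 30.3, the interleukin-1 receptor antagonist Il1rn at 23.2, 21.6 and 24.8 and Tnfsf12 at 14.5, 19.6 and 13.5. Il1b was at 10.1, 9.36 and 8.67 RPKM and Tnf at 5.26, 8.16 and 3.92. Il10 (0.0108, 0.114 and 0) and Il12b (0.332, 0.844 and 0.544) were under 1 RPKM in each library. Of the 18, 14 were lowest in replicate 3, against 43.4% of all genes at 1 RPKM or more.

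Growth factor genes were at 1 RPKM or more in 20 of 40 cases, near the 48.1% of all genes. Grn, which encodes the lysosomal protein progranulin, was at 237, 262 and 320.4 RPKM, followed by Igf1 (37.6, 35.2 and 73.7), the dead-cell bridging protein Pros1 (37.3, 36.4 and 37.1) and Metrnl (32.2, 39.1 and 39.3). Igf1 was highest in replicate 3 and Pros1 lay within a narrow band. Areg (0.0117, 0.0265 and 0) and Fgf2 (0.121, 0.0458 and 0.0509) were near 0. Protease inhibitors were at 1 RPKM or more in 14 of 29 cases, also near the 48.1% of all genes. After Wfdc17 and Cst3 came Cstb, an inhibitor of cathepsins (280.4, 304 and 335), and Serpinb6a (105, 103 and 117). The broad protease inhibitor A2m was at 0.00301, 0 and 0.0152. Of matrix and matricellular genes, 17 of 36 were at 1 RPKM or more, again near the 48.1% of all genes. They were led by Lgals3, Gpnmb, osteopontin, Spp1, (868, 548 and 619.9) and Lgals1 (371, 349 and 329).

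Lipid carriers and lipases were at 1 RPKM or more in 11 of 25 cases, near the 48.1% of all genes. Of those 11, 8 were highest in replicate 3, against 27.3% of all genes. After Psap and Apoe came Lpl, the lipoprotein lipase (275, 218 and 439.5), and Npc2, which moves cholesterol out of lysosomes (216, 234 and 220.3). Lpl was highest in replicate 3 and Npc2 was even. Apoa1 (0.0571, 0 and 0.0599) and Apob (0.0091, 0 and 0.017) of liver and gut were near 0.

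Lysosomal and extracellular proteases held 3.73%, 4.23% and 5.16% of the RPKM, with 31 of 46 members at 1 RPKM or more. Ctsb was at 586, 667 and 999 RPKM, after Ctss, Ctsd and Mmp12. Ctsa, which also protects other lysosomal enzymes, was at 214, 261 and 269 and Mmp8 at 246, 192 and 287. Mmp9, the gelatinase, was at 0.215, 0.223 and 0.327, and Mmp7 was listed at 0. Of the 31, 20 were highest in replicate 3, against 27.3% of all genes. Ctsk was the most abundant member past 2-fold, at 87.7, 136 and 299 RPKM.

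The upstream DNA of 4 of these protease genes is shown as an example of 2 of the 3 letter motifs searched, since at least 2 members of the list held each. These are the core of the CLEAR element, TCACGTGA, which MiT factors such as Tfeb are known to bind, and the PU-box GAGGAAGT, a site of PU.1. Other lists also held both, with a single gene for one of them. The search took the 250 bases before each RefSeq start site of GRCm38.p6, on both strands, and the CLEAR core reads the same on both. No motif searched contains another. Shown are the 2 most abundant members of the list with each motif, as 120 bases in the direction of the gene, with the motif in capitals. The PU-box lies on the opposite strand in Mmp12 and Mmp8 and so reads ACTTCCTC.
Ctsd, chr7:142387863-142387982, minus strand: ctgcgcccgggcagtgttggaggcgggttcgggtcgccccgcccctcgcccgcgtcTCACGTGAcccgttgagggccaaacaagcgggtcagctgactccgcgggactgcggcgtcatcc
Ctsa, chr2:164833653-164833772, plus strand: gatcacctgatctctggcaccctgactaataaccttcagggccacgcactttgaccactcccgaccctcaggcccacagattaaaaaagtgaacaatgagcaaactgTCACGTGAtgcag
Mmp12, chr9:7344253-7344372, plus strand: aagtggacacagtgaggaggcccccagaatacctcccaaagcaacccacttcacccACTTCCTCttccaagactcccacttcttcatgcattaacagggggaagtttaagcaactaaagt
Mmp8, chr9:7558179-7558298, plus strand: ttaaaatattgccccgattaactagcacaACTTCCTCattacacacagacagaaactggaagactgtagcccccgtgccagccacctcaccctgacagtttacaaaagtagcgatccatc
The motif starts 99 bases before the start site in Ctsd, 13 in Ctsa, 88 in Mmp12 and 221 in Mmp8.

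The CLEAR core was found in 0.785% of all 32851 windows. In the 19986 windows of genes measured here, the share to set beside the classes and lists, it was 1.07%. By abundance class the share was 4.35% (1 of 23 windows) at 1000 RPKM or more, then 2.49%, 1.93%, 1.48%, 0.495% and 0.446% down the classes, and 0.180% for genes listed at 0. In the lysosomal hydrolases and membrane proteins it was 11.1%, or 3 of 27 windows, which belong to Gla, Cln3 and Mcoln1. The PU-box was found in 2.44% of all windows and in 2.27% of those of genes measured here. It was in 4.35%, 3.04%, 3.03%, 2.56%, 2.65% and 1.55% down the classes, and in 1.32% for genes listed at 0. TATAAA, searched on the gene's strand alone, was found in 7.59% of all windows and in 7.5% of those of genes measured here. It was in 13.04%, 9.94%, 4.07%, 3.23%, 5.85% and 9.96% down the classes, and in 24.2% for genes listed at 0. A match is a description of letters, not a bound site, and windows of 1 gene can overlap.

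The lysosomal hydrolases and membrane proteins were all present, with 33 of 33 members at 1 RPKM or more and a median of 34.4 RPKM. The membrane protein Lamp1 was at 420.3, 431 and 480.03 RPKM, the tetraspanin Cd63 at 335, 372 and 393, and the glycosidases Hexa and Man2b1 at 214, 236 and 252 and 175, 178 and 221. Of the 33, 1 was past 2-fold, against 6.35% of all genes. It was the beta-galactosidase Glb1, highest in replicate 1 (34.1, 14.1 and 10.2). The vacuolar proton pump had 18 of 24 subunits at 1 RPKM or more, all 18 of them above 10 RPKM. Of the 18, 0 were past 2-fold, which for so few members is near the 6.35% of all genes. Atp6v0c, the proteolipid of its ring, was at 434, 608 and 542 RPKM, Atp6v1b2 at 169, 171 and 202 and Atp6v0b at 145, 163 and 164. Atp6v1b1 of kidney was at 0.0146, 0.0055 and 0.0184. Iron genes were at 1 RPKM or more in 13 of 16 cases, with heme oxygenase, Hmox1, at 88.7, 89.99 and 109 RPKM and Blvrb at 52, 67.3 and 74.5, and 11 of the 13 were lowest in replicate 1, against 23.1% of all genes. Hpx (0.0855, 0.0286 and 0.0478) was near 0.

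The phagocyte oxidase and antioxidant genes did not pass 2-fold in any of 26 cases at 1 RPKM or more. In so short a list this does not set them apart from the 6.35% of all genes. Cyba, the small subunit of the oxidase membrane complex, was at 425, 551 and 495 RPKM, Prdx1 at 325, 359.7 and 469 and Gpx4, which protects lipids from peroxidation, at 209, 228 and 215. Cytoskeleton genes, those of actin and Vim, were at 1 RPKM or more in 36 of 38 cases, with a median of 116 RPKM. Of the 36, 1 was past 2-fold, against 6.35% of all genes, the bundling protein Fscn1 (3.32, 9.999 and 3.35). Glycolysis genes were at 1 RPKM or more in 24 of 27 cases, led by Pkm (481, 495 and 450.4), Aldoa (438, 473 and 385), Gapdh (338, 377 and 279) and Eno1 (278, 290.2 and 212), and 18 of the 24 were lowest in replicate 3, against 43.4% of all genes.

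MHC genes were at 1 RPKM or more in 25 of 25 cases. Of the 25, 15 were lowest in replicate 3, against 43.4% of all genes, and 10 in replicate 1, against 23.1%. The 10 class II genes, a set chosen after the values had been seen, were mixed. The 4 most abundant of them, Cd74, H2-Aa, H2-Ab1 and H2-Eb1 (543, 793 and 800.1), were lowest in replicate 1, and the other 6 in replicate 3, among them Ciita, the activator of class II transcription (28.9, 26.4 and 20.9). Interferon-stimulated genes did so in 27 of 30 cases with a median of 5.10 RPKM, led by Ifitm2 (103, 91.8 and 102), Bst2, Ifitm1 (160.2, 46.1 and 13.3) and Ifitm3 (79.5, 37.3 and 34.4). Of the 27, 19 were highest in replicate 1, against 40.3% of all genes, and 21 lowest in replicate 3, against 43.4%. Isg20 (0.922, 0.724 and 0.468) and Ifi44 (0.372, 0.375 and 0.15) were under 1 RPKM. Among markers of alternative and classical activation, 19 of 29 were at 1 RPKM or more. Tgm2, a transglutaminase of alternative activation, was at 49, 60.8 and 45.1 RPKM and Arg1, which consumes arginine, at 15.4, 2.61 and 3.06, its highest value in replicate 1. Nos2, the inducible nitric oxide synthase, was at 0.0317, 0.231 and 0.0237 and Ptgs2 at 0.193, 0.91 and 0.128.

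The libraries differed little for most genes. Over the 9897 genes at 1 RPKM or more, the median coefficient of variation was 10.2%, where counting alone gives a median of 2.39%, and the median ratio of the highest to the lowest library was 1.22. Past 2-fold were 628 genes (6.35%). Of these, 438 were highest in replicate 1, 110 in replicate 2 and 80 in replicate 3, and 498 were lowest in replicate 3. Over all 9897 genes, 40.3% were highest in replicate 1 and 43.4% lowest in replicate 3. Without replicate 3, 199 of 9945 genes (2.0%) at a mean of at least 1 RPKM over replicates 1 and 2 were past 2-fold. Without replicate 1 the number was 314, and without replicate 2 it was 517. For a given gene, 2 libraries cannot span more than 3, so these numbers compare with each other and not with 628. By class, 0 of 25 genes at 1000 RPKM or more, 31 of 362 between 100 and 1000, 121 of 3563 between 10 and 100 and 476 of 5947 between 1 and 10 were past 2-fold. The common biological coefficient of variation that edgeR estimated over 12368 genes was 21.8%, a summary that includes the strongly differing genes.

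The proliferation genes differed together. All 29 members were highest in replicate 1, against 40.3% of all genes, 28 were lowest in replicate 3, against 43.4%, and 23 were past 2-fold, against 6.35%. Mki67, a protein of dividing cells, was at 26.2, 14.6 and 8.1 RPKM and the DNA topoisomerase Top2a at 23, 11 and 5.43. Pcna, the sliding clamp of DNA polymerase and the most abundant member, was even at 89.5, 77.3 and 85, followed by Ccnd3 (26, 22.8 and 15.9) and Cdkn1a, an inhibitor of the cell cycle (24.5, 19.3 and 10.1). The list's median deviation was 0.63, -0.08 and -0.92 on the log2 scale. Between replicates 1 and 2 alone, 4 of the 29 were past 2-fold, against 1.75% of all genes.

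The replication-dependent histone genes, a set chosen after the values had been seen, followed the same order of libraries. Of 59 such genes at 1 RPKM or more, 52 were past 2-fold, against 6.35% of all genes. Of the 59, 52 were highest in replicate 1, against 40.3%, and 56 lowest in replicate 3, against 43.4%. Between replicates 1 and 2 alone, 2 of the 59 were past 2-fold, against 1.75% of all genes. Together, 68 histone genes held 2.37%, 1.89% and 0.665% of the RPKM. Hist1h3c was at 357, 259 and 53.7 RPKM and Hist1h4m at 411, 367 and 140.01. Their copies are near-identical and can share reads. These transcripts mostly lack a poly(A) tail, and how RNA was selected for the libraries is not given in the sources used here. Histones made up 47 of the 152 genes past 2-fold at a mean of 10 RPKM or more. Cytosolic ribosomal protein genes, also chosen afterwards, were lowest in replicate 3 in 77 of 79 cases, against 43.4% of all genes. Of the 79, 2 were past 2-fold, against 6.35% of all genes, and 0 between replicates 1 and 2 alone, against 1.75%. The set held 9.54%, 9.39% and 7.49% of the RPKM.

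The 10 genes with the widest spread at 10 RPKM or more mostly stood low in replicate 3. Besides Ear10 they were Car4, a membrane carbonic anhydrase (23.8, 38.5 and 1.46), Asgr2, a lectin chain (32.1, 7.96 and 1.81), Ifitm1 (160.2, 46.1 and 13.3), Ccl17 (275, 314 and 26.5), Mamdc2 (41.7, 29.6 and 4.17) and Fbp1, an enzyme of gluconeogenesis (24.4, 25.4 and 2.96), all 6 lowest in replicate 3. Acpp, an acid phosphatase, was high in replicate 1 alone (26.4, 2.94 and 3.59). Saa3, an acute phase protein (6.52, 118 and 7.62), and the chemokine Ccl5 (6.83, 40.8 and 4.71) were high in replicate 2 alone. For Car4 the ratio of highest to lowest was 26.4 and for Saa3 18.05, while for Ear10 it was 458.

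Of the 16 chemokine genes at 1 RPKM or more, 10 were highest in replicate 2, against 32.4% of all genes. In replicate 1, 3 were highest, against 40.3%, among them Ccl2 (24.9, 7.4 and 9.15). Cxcl3, Cxcl2 and Cxcl1 were under 1 RPKM in replicates 1 and 3, so the cut alone made them highest in replicate 2. Of the 18 cytokine genes, 5 were highest in replicate 2, near the 32.4% of all genes, and 12 in replicate 1, against 40.3%. Several genes were picked for naming because they were highest in replicate 2, so their direction is no result. The neutrophil-attracting chemokines Cxcl3 (0.207, 15.7 and 0.603), Cxcl2 (0.922, 5.14 and 0.61) and Cxcl1 (0.178, 3.4 and 0.286), the cytokine Il6 (0.0776, 1.64 and 0.0434), the siderophore-binding protein Lcn2 (6.55, 23.3 and 6.85) and Irg1, which makes itaconate (3.8, 16.6 and 3.26), were each highest there, as was Tnf, while Il1b was highest in replicate 1. Replicates 1 and 2 alone differed by more than 2-fold in 7 of the 16 chemokine genes at 1 RPKM or more, against 1.75% of all genes. Cxcl3, Cxcl2 and Cxcl1 were among the 7.

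Some genes of lipid handling were picked for naming because they were highest in replicate 3, so their direction is no result. Abca1, which exports cholesterol, was at 13.6, 16.6 and 34.8 RPKM, Pltp, which transfers phospholipids, at 67.4, 93.3 and 142 and Lipa, the acid lipase, at 107, 121 and 171. The lipid carriers and lipases had a median deviation of -0.18, -0.11 and 0.37 on the log2 scale. Past 2-fold were 5 of 11, against 6.35% of all genes, and of these Saa3 was highest in replicate 2. Between replicates 1 and 2 alone, 1 of the 11 was past 2-fold, against 1.75% of all genes. The neutrophil markers, at 0.01, -0.50 and 0.37, were also high in replicate 3, and their part in the differences of this library was not tested.

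**Figure D4:**
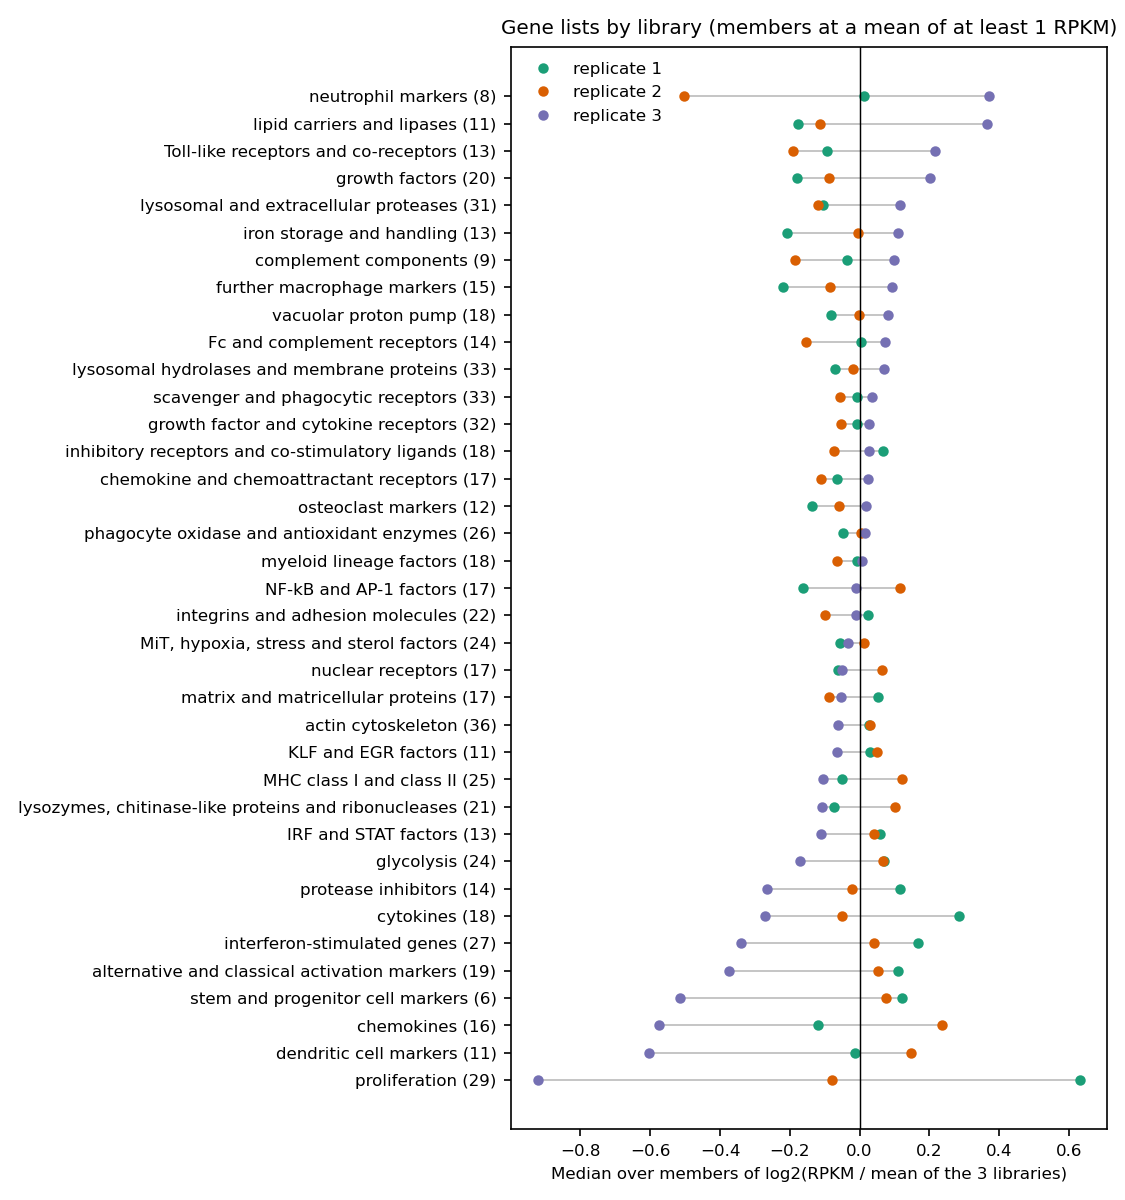
Median, over the members of each list at 1 RPKM or more (their number in brackets), of the log2 ratio of a library's RPKM to the mean of the 3 wild type libraries. Proliferation genes lie at 0.63, -0.08 and -0.92 in replicates 1, 2 and 3, and lipid carriers at -0.18, -0.11 and 0.37.

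The most even genes at 10 RPKM or more were of mixed function. Prkrir was at 15.2, 15.2 and 15.2 RPKM, the glycolytic mutase Pgam1 at 175, 175 and 175 and the palmitoyltransferase Zdhhc6 at 11.7, 11.7 and 11.7. The others were the iron-sulfur assembly factor Isca2 (10.3, 10.3 and 10.3), the chromatin reader Brpf1 (12.3, 12.3 and 12.4), the mannosidase Man1b1 (14.5, 14.5 and 14.5), 3110001D03Rik (20.4, 20.4 and 20.5), the membrane-trafficking protein Pdcd6ip (11.9, 11.9 and 12), Dennd5a (21.6, 21.7 and 21.8) and Pdxdc1 (18.1, 18 and 18). Each of these 10 spanned at most 1.01-fold. They were the smallest ratios of many, and their coefficients of variation lay below those that counting alone gives.

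**Figure D5:**
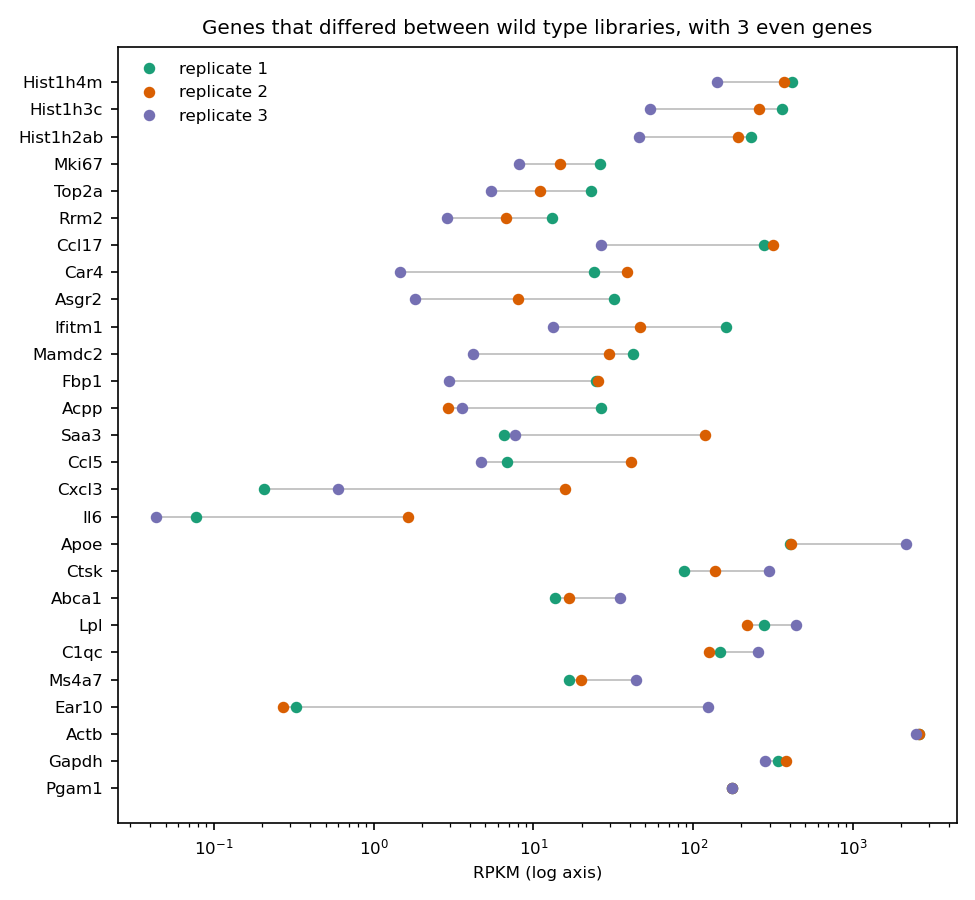
RPKM (log axis) in each wild type library of genes that differed between libraries, with Actb, Gapdh and Pgam1 for comparison. Gapdh, which the title counts among the even genes, was at 338, 377 and 279 RPKM. Histone and proliferation genes are lowest in replicate 3, Saa3, Ccl5, Cxcl3 and Il6 are highest in replicate 2, and Apoe, Ctsk and Ear10 are highest in replicate 3.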

How the data were processed

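Gene expression was measured by RNA sequencing in 3 libraries of wild type bone marrow-derived macrophages, taken by their labelled genotype. For each transcript row, the deposited table gives a raw read count and an RPKM made by the authors, per the file headers. Bowtie 0.12.2 and mm8 are listed in the submitters' processing notes, with no role given. How reads were counted, with or without strand, and how RNA was selected is not given in the sources used here, and files carry no coordinates. Promoter windows are RefSeq's, on GRCm38.p6, with 16376 of the genes matched by symbol or transcript.

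One row per symbol was kept (highest mean count). Of 47 symbols turned into dates, 46 were restored by their transcript. In 4059 genes with several rows, the remaining rows held 97.0% of the top row's count (median), so isoforms are not separate measurements. At a mean count above 10, another symbol had identical counts for 73 genes, 11 of them at 1 RPKM or more. Levels are the deposited RPKM; ratios of the highest to the lowest library, coefficients of variation and class counts were computed from these tables in Python 3.11.15 (numpy 2.4.6, pandas 2.3.3; figures with matplotlib 3.10.9). On TMM-scaled counts, the planned scale, the median coefficient of variation was 10.22%, against 10.24% on RPKM. The common dispersion came from edgeR 4.0.16 in R 4.3.3 with an intercept alone, and the script was tested on simulated data. With 1 group there was no test and no p-value.

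The members and the 44 gene lists were chosen with earlier results of these data known. The text names the 30 highest genes, up to 4 top members and 2 low members of each list, Csf1r, Lyz2, Mpeg1, Cd68, Actb and Gapdh, and the 10 widest and 10 narrowest spreads at 10 RPKM and a mean count of 100 or more. Some genes that this rule names are not reported here. Other genes named were picked with their values in view. Alternatives were another row per gene, TPM, other thresholds and scalings, a pseudocount and each library left out.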

Additional observations from a re-analysis of the deposited data

How the results depend on the processing

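Counts of genes at 1 RPKM or more stayed within 1.5 times of 9897 under each alternative run, and without 1 library they ranged from 9794 to 9945. Genes at 100 RPKM or more were 387, and without 1 library they ranged from 381 to 399. At 100 TPM or more they were 1453. TPM has a fixed total above the summed RPKM of each library (280947, 291837 and 275144). The same number is therefore a lower cut on the TPM scale, and the change is mostly one of threshold. The share of counts in the 10 most abundant genes, 12.65%, was 11.94% when ranked by RPKM, 11.5% over all transcript rows and 12.32% to 12.97% without 1 library. The 628 genes past 2-fold became 152 at a mean of 10 RPKM or more, 3023 with no filter on low values and 405 with 1 added to the RPKM, and 199 to 517 without 1 library. Without histones, an alternative chosen after seeing the data, 105 of the 152 remained. The biological coefficient of variation was 17.71% to 25.66% without 1 library. On the TPM scale, with its lower cut, 31 of 44 lists gained members at the threshold. In 3 of them the gain was over 1.5 times: factors of other blood lineages (5 members), T and NK cell markers (2) and stromal, endothelial and fat cell markers (10). Depth limits the low classes, since a count of a few reads decides whether a gene is listed at 0. The genes at a count of 0 did not follow the order of depth. They were 5250, 5241 and 2363 in replicates 1, 2 and 3, at total counts of 40088984, 53725121 and 48078221 over the rows kept. The reason for the difference of replicate 3 was not tested. No paired analysis was possible because only 1 group was described and no result comes from a test.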
